A study of Homo sapiens with 12 samples.

Results

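The levels of 9 genes that mark mesenchymal cells and pericytes, VIM, THY1, PDGFRB, CSPG4, TWIST1, TWIST2, PRRX1, S100A4 and RGS5, were followed in the human cell line HMC3. They were picked by name, with earlier results of these data known but without a threshold on any measured value. The choice was among 36315 genes to which quantified transcripts could be assigned. All 9 passed the minimum of 10 estimated counts over the 12 libraries and were among the 21601 genes tested, PRRX1 with only 11 counts, 9 of them in libraries that received EphB2-Fc without ephrin-B1 siRNA. HMC3 is an immortalized line that the labels describe as microglia from brain, and every library comes from this line alone. The cells were transfected for 48 h with an siRNA against ephrin-B1 or with a negative control siRNA, using RNAiMAX. They were then exposed for 24 h to EphB2-Fc or Ctrl-Fc at 2 ug/mL, each clustered in advance with an antibody to human IgG. This gave the groups EphB2 + ephrin-B1 siRNA (EphB2-Fc after ephrin-B1 siRNA), EphB2 (EphB2-Fc after the negative control), ephrin-B1 siRNA (that siRNA followed by Ctrl-Fc) and Ctrl (Ctrl-Fc after negative control siRNA), with 3 libraries each. The Ctrl cells were therefore also transfected and also received a clustered Fc protein.

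Mesenchymal cells are motile cells of connective tissue. They are recognized by the intermediate filament vimentin (VIM), the surface glycoprotein CD90 (THY1), the calcium-binding protein S100A4 and the transcription factors TWIST1, TWIST2 and PRRX1. Pericytes are mural cells wrapped around capillaries, in the brain as part of the blood-brain barrier. They depend on PDGF-BB from endothelial cells acting on its receptor PDGFRB, and they carry the proteoglycan NG2 (CSPG4) and the G protein regulator RGS5. Microglia are macrophages of the brain and descend from yolk sac progenitors, a different lineage. The comparisons asked what each gene's level was in these cells and whether EphB2-Fc, which binds ephrin-B proteins on the cell surface, or loss of ephrin-B1 moved it.

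Estimated counts per library lay between 13230689 and 25785591. EFNB1, the gene of ephrin-B1 and the target of the siRNA, lay at 6.03 to 6.56 counts scaled to the library total (CPM) in EphB2 + ephrin-B1 siRNA, 15.6 to 18.8 in EphB2, 6.60 to 8.70 in ephrin-B1 siRNA and 17.5 to 20.4 in Ctrl libraries, as the labels say. Of 15 microglial markers, 3 had a mean of at least 1 TPM, the estimated count scaled to transcript length and library, namely CD68 at 25.6, CSF1R at 2.13 and TMEM119 at 1.26 TPM. Of the same 15, 11 reached the minimum of 10 counts over the 12 libraries. AIF1, CX3CR1, TYROBP and C1QA, named after their values were seen, had between 1 and 3 counts in all 12 libraries together. Most of the 15 markers of the labelled cell type thus lay below 1 TPM. At or above the same level were 24 of 28 other mesenchymal genes, 12 of 17 other pericyte genes, 10 of 12 epithelial, 2 of 7 endothelial, 3 of 6 astrocyte, 3 of 5 neuronal and 2 of 6 oligodendrocyte genes. RNA5-8SP6, a pseudogene of 5.8S rRNA, took between 10.6% and 40.6% of TPM, so TPM was used to compare genes within libraries and CPM after TMM normalization to compare libraries.

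In every group 8 of the 9 genes had a mean of at least 1 TPM, and PRRX1 did not. Over the 12 libraries VIM averaged 1284 TPM, place 56 among all genes by mean TPM, with single libraries from 863 to 1671 TPM. THY1 averaged 244 TPM (150 to 366), PDGFRB 89.8 TPM (50.2 to 160) and CSPG4 28.0 TPM (13.1 to 47.9). The transcription factors lay lower, with TWIST1 at 18.7 TPM (13.1 to 22.9) and TWIST2 at 5.36 TPM (2.75 to 8.68). RGS5 averaged 5.33 TPM (3.60 to 6.75), S100A4 4.27 TPM (1.48 to 7.11) and PRRX1 0.088 TPM (0 to 0.99). VIM was above THY1, THY1 above PDGFRB, PDGFRB above CSPG4 and TWIST1 above TWIST2 in 12 of 12 libraries. CSPG4 was above TWIST1 in 9, and the order of the next genes was not fixed, since TWIST2 was above RGS5 in 4 and above S100A4 in 10, and RGS5 above S100A4 in 9 of the 12. The ranges of TWIST2, RGS5 and S100A4 over libraries overlapped. In bulk RNA, fewer cells with a transcript and less of it per cell cannot be told apart.

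By group, VIM averaged 1054 ± 166 TPM in EphB2 + ephrin-B1 siRNA, 1265 ± 126 in EphB2, 1363 ± 50.5 in ephrin-B1 siRNA and 1455 ± 187 in Ctrl libraries (SD, n = 3 each). THY1 averaged 195 ± 39.1, 256 ± 87.4, 248 ± 92.9 and 276 ± 78.2 TPM in the same groups, and PDGFRB 71.4 ± 19.1, 77.3 ± 26.4, 111 ± 47.0 and 99.8 ± 24.8 TPM. For THY1 and PDGFRB the SD within a group was as wide as most differences between groups. CSPG4 averaged between 25.2 TPM in EphB2 + ephrin-B1 siRNA and 31.9 TPM in ephrin-B1 siRNA, TWIST1 between 16.8 and 22.2 TPM in the same groups, and TWIST2, RGS5 and S100A4 between 3.8 and 6.18 TPM in every group.

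**Figure D1:**
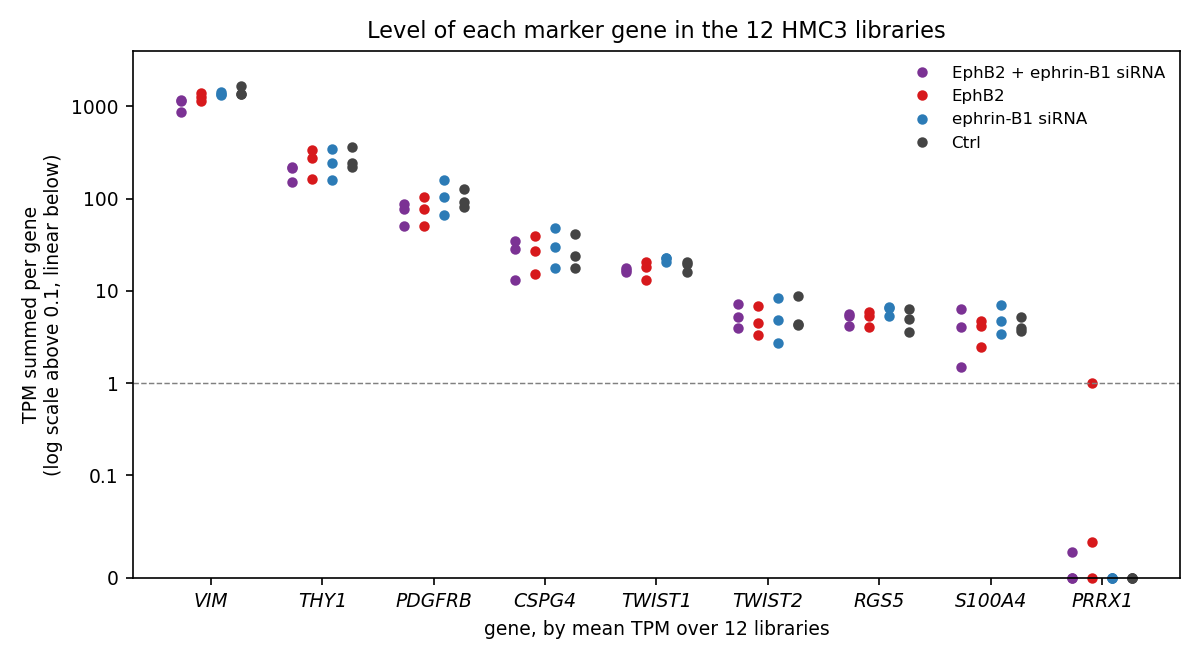
TPM summed per gene on the y axis (log scale above 0.1, linear below) for the 9 genes on the x axis, ordered by mean TPM, with 1 point per library and 4 groups of 3 libraries in colour. VIM lies highest, between 863 and 1671 TPM, and PRRX1 is at 0 in 9 of 12 libraries, while the other genes lie above the dashed line at 1 TPM in every library.

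The files list between 1 and 12 transcripts per gene, and what the gene totals hold differed. VIM-201 made up 97.4% of VIM TPM and CSPG4-201 is the only CSPG4 transcript listed. TWIST2-202 held 81.3% and TWIST1-201 68.1% of their genes' TPM. THY1 and PDGFRB were split more widely. THY1-203, THY1-205 (marked for nonsense-mediated decay) and THY1-201 held 38.1%, 29.1% and 28.9% of THY1 TPM, although THY1-201, the longest listed, had 72.1% of the counts. PDGFRB-201 held 44.6% and PDGFRB-204 15.5% of PDGFRB TPM, with 87.0% of the counts on PDGFRB-201. S100A4-203 and S100A4-206, a transcript without a defined coding sequence, held 50.1% and 25.2% of S100A4 TPM. Of the 8260 stretches of 31 bases in CSPG4-201, 1499 (18.1%) occur in transcripts of 12 other genes, most often the pseudogene CSPG4P13. CSPG4P13 itself had 0.041 TPM, CSPG4P11 2.04 TPM and CSPG4P10 0.49 TPM, so a part of the CSPG4 reads could be assigned to either. The most counted transcript of the other members shared at most 0.27% of such stretches with other genes, THY1 aside, and TWIST1-201 shared none with TWIST2. For THY1-201 it was 2.53%, but the GENCODE 44 sequence searched held 4472 stretches, whereas the THY1-201 quantified is 3556 bases long. The share of THY1-201 therefore describes a longer version than the one to which reads were assigned.

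RGS5 (chr1:163111121-163321791, minus strand, GRCh38) is annotated with a distal and a proximal group of transcript starts, and those of its long coding transcripts lie 118875 bases apart. RGS5-203, which has no defined coding sequence and begins at the distal start, held 65.3% of RGS5 TPM and 31.5% of its counts. The 4 short transcripts of the distal start (RGS5-203, RGS5-207, RGS5-210 and RGS5-211) had counts in every library, 10.6 to 37.7 each and 296 in all. The long coding transcripts RGS5-201 (proximal start) and RGS5-212 (distal start) had 406 counts together. These were placed almost wholly on 1 of the 2 in 10 libraries, with RGS5-201 under 1 count in 6 and RGS5-212 under 1 count in 4, so their split was not stable. NUF2, a kinetochore gene of the opposite strand, overlaps the distal part and had 48.6 TPM. Whether strand was used in quantification is not given in the sources used here, and of the 550 stretches of 31 bases in RGS5-203, 0 occur on the opposite strand in a transcript of another gene. The search covered annotated transcripts only, so it cannot tell whether unspliced NUF2 RNA was counted as RGS5. The promoters of both starts are shown because the counts of RGS5 divide between them, 70.1% on transcripts of the distal and 26.7% on those of the proximal start as quantified, and they are given as 300 bases from RefSeq (GRCh38.p14, minus strand) that run from 250 bases before to 50 bases after the start, at chr1:163321686-163321985 (distal) and chr1:163202867-163203166 (proximal). Capitals mark matches to any of 4 motifs on either strand. An E-box was searched as CANNTG. A GC box was searched as GGGCGG in the same way. The CCAAT box was searched by the letters of its name. A TATA-like match had the letters TATANA, and matches of this motif could overlap.
RGS5 distal: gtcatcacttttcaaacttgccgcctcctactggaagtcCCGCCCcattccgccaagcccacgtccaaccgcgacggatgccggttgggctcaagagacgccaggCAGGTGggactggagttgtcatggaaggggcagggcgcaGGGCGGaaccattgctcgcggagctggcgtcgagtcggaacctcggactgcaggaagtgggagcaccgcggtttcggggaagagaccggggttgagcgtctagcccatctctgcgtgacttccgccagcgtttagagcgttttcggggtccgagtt
RGS5 proximal: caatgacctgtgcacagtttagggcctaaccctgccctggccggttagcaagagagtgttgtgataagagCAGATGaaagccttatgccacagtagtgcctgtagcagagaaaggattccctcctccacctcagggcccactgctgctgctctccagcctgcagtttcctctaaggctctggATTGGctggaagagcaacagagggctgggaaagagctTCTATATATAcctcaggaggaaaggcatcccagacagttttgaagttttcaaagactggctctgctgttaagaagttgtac
The distal promoter was 63.0% G and C with 28 CpG, 2 GC boxes, 1 E-box and no TATA-like match. The proximal promoter was 51.0% G and C with 1 CpG, 3 overlapping TATA-like matches, 1 CCAAT box, 1 E-box and no GC box. Among all 35116 promoters of this length an E-box occurred in 68.7%, a GC box in 45.0%, a CCAAT box in 34.6% and a TATA-like match in 19.0%. The median promoter was 58.7% G and C with 14 CpG. The motifs were chosen after the sequences were seen, and a match is a description and not a binding site.

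Each comparison was run over all 21601 genes as a quasi-likelihood test in edgeR, and p-values were adjusted over all of them by Benjamini-Hochberg. The first fit held the 4 groups only. A second fit, called blocked, added the replicate number, since libraries of the same number carry the same experiment number in their submitted names. Libraries of the same number are also compared below as pairs. How many of all genes tested moved in the same direction in 3 of 3 pairs was not counted, so pairs are a description only. With groups alone no member passed an adjusted p of 0.05 in EphB2 vs Ctrl, where 0.037% of genes tested did, in ephrin-B1 siRNA vs Ctrl (1.81%), in EphB2 + ephrin-B1 siRNA against ephrin-B1 siRNA alone (0.116%), in EphB2 + ephrin-B1 siRNA vs EphB2 (0.616%) or in EphB2 + ephrin-B1 siRNA vs Ctrl (2.01%). Without adjustment, p was under 0.05 for THY1 in ephrin-B1 siRNA vs Ctrl (12.1% of genes tested had such a p), in EphB2 + ephrin-B1 siRNA vs EphB2 (10.4%) and in EphB2 + ephrin-B1 siRNA vs Ctrl (13.3%). It was so for 0 of the 8 members other than PRRX1 in EphB2 vs Ctrl (7.56%) and in EphB2 + ephrin-B1 siRNA against ephrin-B1 siRNA alone (8.46%). DESeq2 without the replicate number also called 0 of 9 members in each comparison. In the interaction, the difference of the EphB2-Fc effects with and without the siRNA, 0 of 9 members were called without the block (0% of genes tested), where none had an unadjusted p under 0.05 (2.31% of genes tested), and 0 of 9 with it (0.00463%).

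With the replicate block 3 members were called, VIM, THY1 and PDGFRB, each lower wherever it was called. In EphB2 vs Ctrl this was 1 of 9 members (5.34% of genes tested were called and 3.2% were lower), and in ephrin-B1 siRNA vs Ctrl 2 of 9 (13.6% called, 7.06% lower). It was 1 of 9 in EphB2 + ephrin-B1 siRNA against ephrin-B1 siRNA alone (6.93% called, 4.11% lower) and 2 of 9 in EphB2 + ephrin-B1 siRNA vs EphB2 (9.93% called, 5.4% lower). In EphB2 + ephrin-B1 siRNA vs Ctrl it was 3 of 9 (15.1% called, 9.04% lower). The comparisons share libraries, so their counts are not independent. Over the 8 members other than PRRX1 the median log2 fold change without the block was -0.12 in EphB2 vs Ctrl, with 7 below 0, beside a median of 0.0069 over all genes. It was -0.079 in ephrin-B1 siRNA vs Ctrl (5 below 0, all genes -0.0032) and -0.025 in EphB2 + ephrin-B1 siRNA against ephrin-B1 siRNA alone (4 below 0, all genes 0.00065). It was -0.025 in EphB2 + ephrin-B1 siRNA vs EphB2 (5 below 0, all genes -0.017) and -0.13 in EphB2 + ephrin-B1 siRNA vs Ctrl (5 below 0, all genes 0.00086). With the fitted value of PRRX1, which depends on the prior count, the medians of all 9 were -0.11, -0.025, 0.017, -0.039 and -0.0083 in the same order. PRRX1 passed the count minimum only through the EphB2 libraries, so the medians of all 9 are a description only. It is also among the 9 in the counts of members called, and was not called in any comparison.

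**Figure D2:**
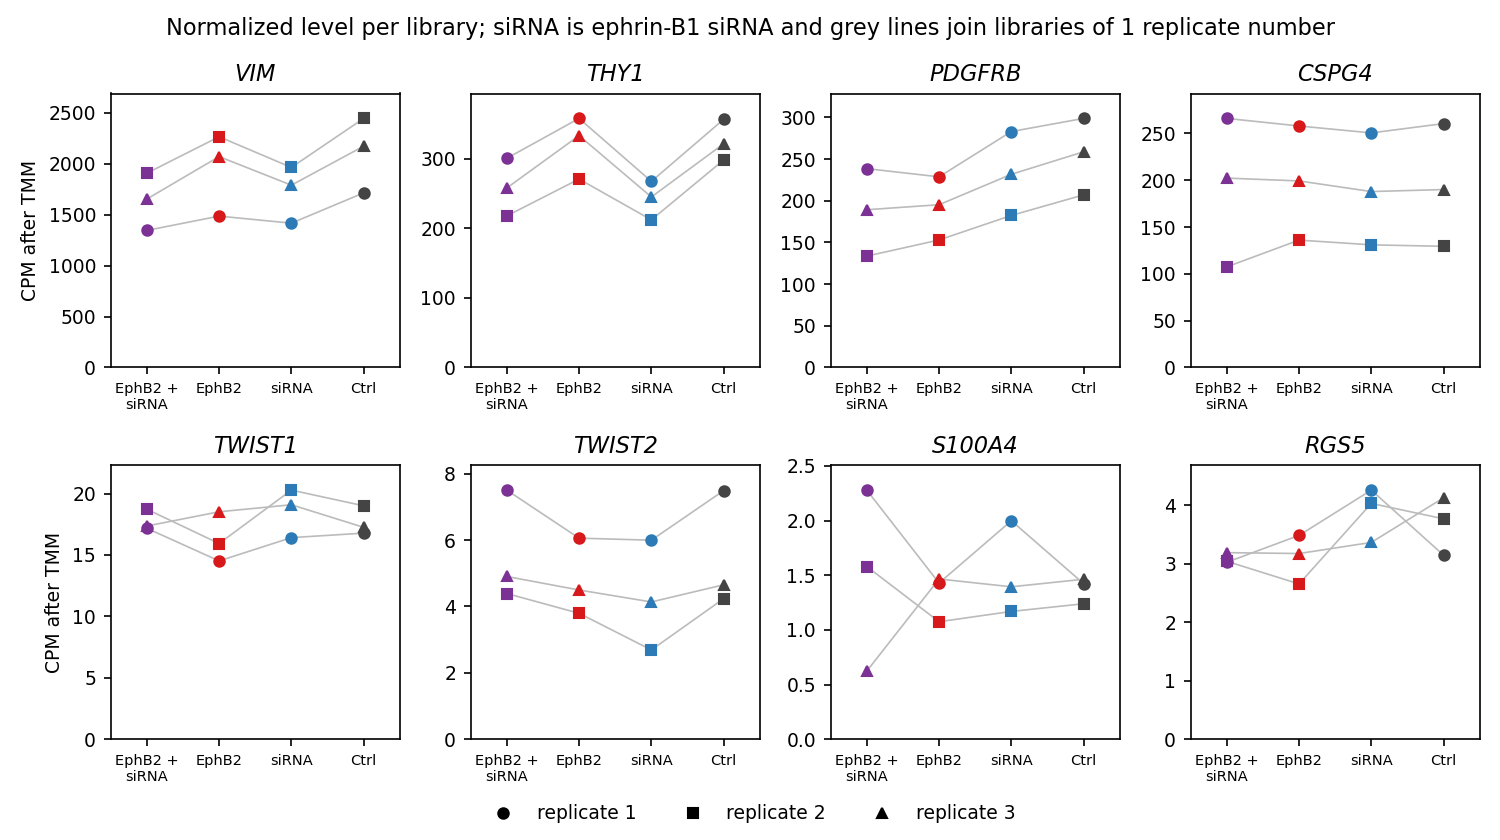
CPM after TMM normalization on the y axis, from 0, for 8 genes in the 4 groups on the x axis, with 1 point per library, a marker shape per replicate number and grey lines joining libraries of the same number. The lines of VIM, THY1, PDGFRB and CSPG4 run apart over all groups, and PDGFRB lies lower in EphB2 than in Ctrl on all 3 lines.

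VIM (chr10:17228241-17237593, plus strand) encodes the main intermediate filament of mesenchymal cells. In replicates 1, 2 and 3 it had 1346, 1908 and 1654 CPM in EphB2 + ephrin-B1 siRNA, and 1487, 2267 and 2071 CPM in EphB2 libraries. It had 1417, 1965 and 1791 CPM in ephrin-B1 siRNA and 1715, 2447 and 2174 CPM in Ctrl libraries. Replicate 1 was lowest in each group and the groups overlapped in every comparison. Within the same replicate number VIM was lower in 3 of 3 pairs in ephrin-B1 siRNA vs Ctrl, with a log2 fold change of -0.29 (SE 0.19, edgeR adjusted p = 0.636 without the block, and with the block SE 0.044 and adjusted p = 0.000554). The same held in EphB2 + ephrin-B1 siRNA vs EphB2 (-0.25, SE 0.19, edgeR adjusted p = 0.774, with the block adjusted p = 0.00344) and in EphB2 + ephrin-B1 siRNA vs Ctrl (-0.37, SE 0.19, edgeR adjusted p = 0.465, with the block adjusted p = 7.43e-05). In EphB2 vs Ctrl VIM was also lower in 3 of 3 pairs, and the log2 fold change was -0.12 (SE 0.19, with the block adjusted p = 0.12 with edgeR), and blocked DESeq2, which called 5.14% of genes tested there, called it (-0.13, adjusted p = 0.0121).

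THY1 (chr11:119415476-119424985, minus strand) encodes CD90, a GPI-anchored surface protein of fibroblasts and mesenchymal stromal cells. It had 301, 218 and 258 CPM in EphB2 + ephrin-B1 siRNA and 358, 271 and 333 CPM in EphB2 libraries. It had 267, 212 and 245 CPM in ephrin-B1 siRNA and 357, 298 and 321 CPM in Ctrl libraries. The highest ephrin-B1 siRNA library lay below the lowest Ctrl library, the only comparison of THY1 in which the groups did not overlap, and 18.1% of genes tested did not overlap there. The log2 fold change of ephrin-B1 siRNA vs Ctrl was -0.43 (SE 0.14, edgeR adjusted p = 0.184, and with the block SE 0.046 and adjusted p = 3.3e-05), lower in 3 of 3 pairs. With EphB2-Fc present the siRNA gave -0.31 (SE 0.14, edgeR adjusted p = 0.469, with the block adjusted p = 0.000815), also lower in 3 of 3 pairs. In EphB2 + ephrin-B1 siRNA vs Ctrl it was -0.33 (SE 0.14, edgeR adjusted p = 0.318, with the block adjusted p = 0.000185). In EphB2 vs Ctrl THY1 had a log2 fold change of -0.021 (SE 0.14, 95% interval -0.34 to 0.30, adjusted p = 0.996), lower in 1 of 3 pairs.

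PDGFRB (chr5:150113839-150155872, minus strand) encodes the receptor tyrosine kinase for PDGF-BB, which pericytes need for recruitment to vessels. It had 239, 134 and 189 CPM in EphB2 + ephrin-B1 siRNA and 229, 153 and 195 CPM in EphB2 libraries. It had 283, 182 and 232 CPM in ephrin-B1 siRNA and 299, 207 and 259 CPM in Ctrl libraries. Replicate 1 was highest and replicate 2 lowest in each group, and EphB2 libraries were lower than Ctrl libraries of the same number in 3 of 3 pairs although the groups overlapped. The log2 fold change of EphB2 vs Ctrl was -0.41 (SE 0.23, edgeR adjusted p = 0.747, and with the block SE 0.051 and adjusted p = 0.000466), a blocked fold of 0.752. After ephrin-B1 siRNA, EphB2-Fc gave -0.31 (SE 0.23, edgeR adjusted p = 0.823, with the block adjusted p = 0.00196), lower in 3 of 3 pairs. The difference between both EphB2-Fc effects was 0.094 (SE 0.32, edgeR adjusted p = 1.00, with the block adjusted p = 0.871). EphB2 + ephrin-B1 siRNA vs Ctrl gave -0.44 (SE 0.23, edgeR adjusted p = 0.455, with the block adjusted p = 3.94e-05). In ephrin-B1 siRNA vs Ctrl it was -0.13 (SE 0.23, with the block adjusted p = 0.0882 from edgeR). That sign turned on log2 of TPM + 1 (0.088), but not when TPM was rescaled without RNA5-8SP6 (-0.066).

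The blocked fit takes replicate 3 as a separate experiment, and 5 of its 9 calls were also made without replicate 3 in any group, over 20658 genes. These were PDGFRB in EphB2 vs Ctrl (-0.43, edgeR adjusted p = 0.0383, 0.678% of genes tested called), THY1 in ephrin-B1 siRNA vs Ctrl (-0.46, adjusted p = 0.00589, 4.02% called) and all 3 genes in EphB2 + ephrin-B1 siRNA vs Ctrl (5.65% called), VIM at -0.35, THY1 at -0.34 and PDGFRB at -0.47 (adjusted p = 0.0245, 0.0177 and 0.00781). The other 4 did not pass. VIM had -0.30 in ephrin-B1 siRNA vs Ctrl (SE 0.075, edgeR adjusted p = 0.052) and PDGFRB -0.33 in EphB2 + ephrin-B1 siRNA against ephrin-B1 siRNA alone (SE 0.078, adjusted p = 0.0859, 0.818% of genes tested called). In EphB2 + ephrin-B1 siRNA vs EphB2, where 1.61% were called, VIM had -0.17 (SE 0.074, adjusted p = 0.27) and THY1 -0.26 (SE 0.068, adjusted p = 0.0847).

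Leaving out single libraries or replicate numbers in the fit of groups alone kept the sign of these 9 log2 fold changes, and none passed there. PDGFRB in EphB2 + ephrin-B1 siRNA against ephrin-B1 siRNA alone ranged from -0.53 without EphB2 + ephrin-B1 siRNA replicate 1 to -0.12 without EphB2 + ephrin-B1 siRNA replicate 2. VIM in EphB2 + ephrin-B1 siRNA vs EphB2 ranged from -0.41 without EphB2 replicate 1 to -0.11 without EphB2 + ephrin-B1 siRNA replicate 1. The ranges of PDGFRB were -0.55 to -0.27 in EphB2 vs Ctrl and -0.66 to -0.25 in EphB2 + ephrin-B1 siRNA vs Ctrl, the smallest sizes without replicate 2 of the group given EphB2-Fc. VIM ranged from -0.42 to -0.17 in ephrin-B1 siRNA vs Ctrl and its range for EphB2 + ephrin-B1 siRNA vs Ctrl was -0.50 to -0.24, the smallest sizes without replicate 1 of the group given the siRNA. THY1 ranged from -0.42 to -0.20 in EphB2 + ephrin-B1 siRNA vs EphB2, and its range against Ctrl was -0.45 to -0.22, the smallest sizes without EphB2 + ephrin-B1 siRNA replicate 2, and from -0.51 to -0.34 in ephrin-B1 siRNA vs Ctrl.

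**Figure D3:**
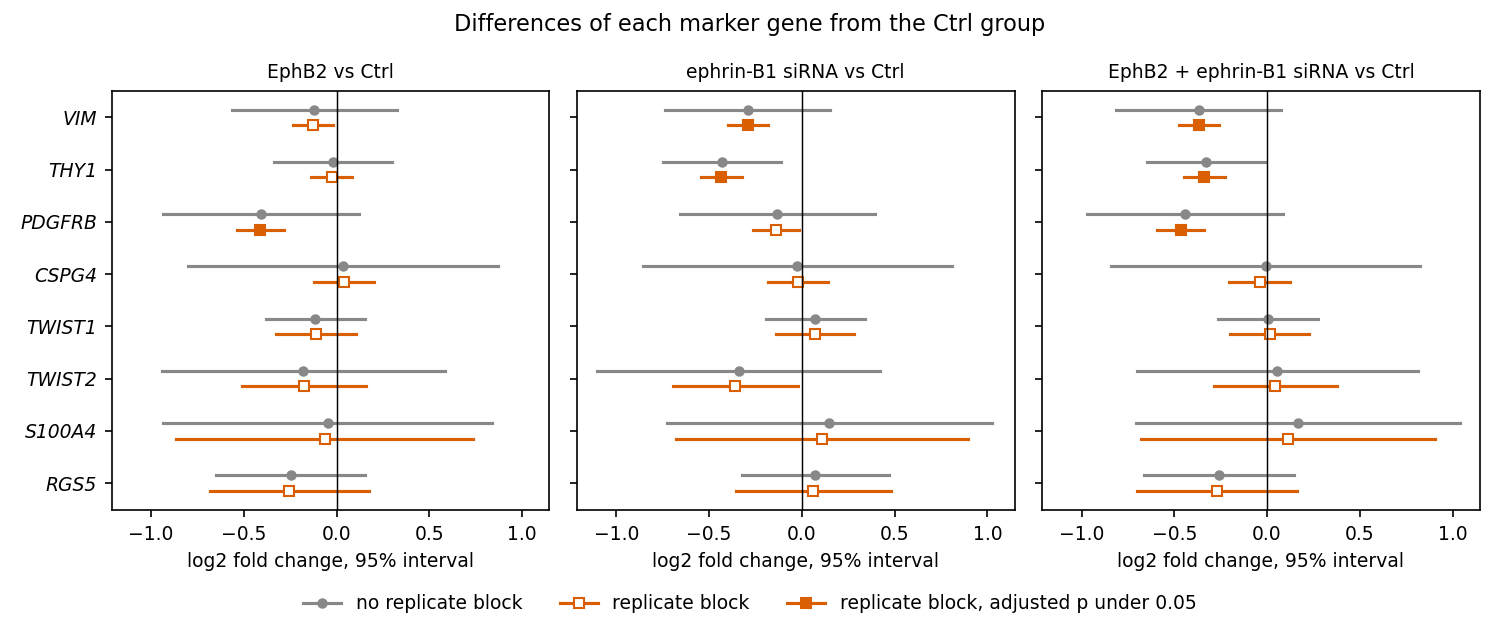
Log2 fold change from Ctrl on the x axis with its 95% interval, for 8 genes in 3 comparisons, in grey from the fit of groups alone and in orange with the replicate number as a block (filled where the adjusted p was under 0.05). Filled points are PDGFRB in EphB2 vs Ctrl, VIM and THY1 in ephrin-B1 siRNA vs Ctrl and all 3 in EphB2 + ephrin-B1 siRNA vs Ctrl, each left of 0, and CSPG4 has the widest gap between the intervals of both fits.

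CSPG4 (chr15:75674322-75712848, minus strand) encodes NG2, a transmembrane proteoglycan of pericytes and oligodendrocyte precursors that binds PDGF. It had 266, 107 and 202 CPM in EphB2 + ephrin-B1 siRNA and 258, 136 and 199 CPM in EphB2 libraries. It had 251, 131 and 188 CPM in ephrin-B1 siRNA and 260, 129 and 190 CPM in Ctrl libraries. Libraries of the same number lay close together and those of different numbers far apart, and all groups overlapped. The blocked log2 fold change was 0.041 in EphB2 vs Ctrl (95% interval -0.12 to 0.20), -0.019 in ephrin-B1 siRNA vs Ctrl (-0.18 to 0.14) and -0.039 in EphB2 + ephrin-B1 siRNA vs Ctrl (-0.20 to 0.12). No difference was detectable, and the intervals leave room for changes up to these bounds.

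TWIST1 and TWIST2 are basic helix-loop-helix factors that repress E-cadherin and drive epithelial to mesenchymal transition. TWIST1 (chr7:19020991-19117636, minus strand) had 17.2, 18.7 and 17.4 CPM in EphB2 + ephrin-B1 siRNA and 14.5, 15.9 and 18.5 CPM in EphB2 libraries. It had 16.4, 20.3 and 19.1 CPM in ephrin-B1 siRNA and 16.8, 19.0 and 17.3 CPM in Ctrl libraries. It was the most even of the members, with a ratio of 1.40 between its highest and lowest library. Its log2 fold change was -0.11 in EphB2 vs Ctrl (SE 0.12, 95% interval -0.38 to 0.15) and 0.072 in ephrin-B1 siRNA vs Ctrl (SE 0.12, 95% interval -0.19 to 0.34).

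TWIST2 (chr2:238848032-238910534, plus strand) had 7.50, 4.39 and 4.90 CPM in EphB2 + ephrin-B1 siRNA and 6.06, 3.79 and 4.49 CPM in EphB2 libraries. It had 6.0, 2.69 and 4.13 CPM in ephrin-B1 siRNA and 7.49, 4.23 and 4.65 CPM in Ctrl libraries. Replicate 1 was highest in each group and all groups overlapped. Within replicate numbers TWIST2 was lower in 3 of 3 pairs in EphB2 vs Ctrl (-0.18, SE 0.33) and in ephrin-B1 siRNA vs Ctrl (-0.34, SE 0.33), and higher in 3 of 3 pairs in EphB2 + ephrin-B1 siRNA against ephrin-B1 siRNA alone (0.40, SE 0.33) and against EphB2 (0.24, SE 0.33). None of these passed, with blocked adjusted p of 0.556, 0.113, 0.102 and 0.392 from edgeR.

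PRRX1 (chr1:170662728-170739421, plus strand), a homeobox factor of limb and craniofacial mesenchyme and of fibroblasts, was at or near 0. It had 2, 0 and 0 counts in EphB2 + ephrin-B1 siRNA, 7, 2 and 0 counts in EphB2 and 0 counts in all 6 ephrin-B1 siRNA and Ctrl libraries. Only the EphB2 library of replicate 1 exceeded 3 counts, the limit that a count of 0 allows, which corresponds to between 0.122 and 0.237 CPM in these libraries. This limit covers counting error only. No fold and no p is given, since the gene passed the count minimum only through the EphB2 libraries. The 7 counts of that library made 0.99 TPM.

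S100A4 (chr1:153543613-153550136, minus strand), a calcium-binding protein of fibroblasts and motile cells, was the least abundant of the detected members in CPM. It had 2.28, 1.58 and 0.623 CPM in EphB2 + ephrin-B1 siRNA and 1.43, 1.07 and 1.47 CPM in EphB2 libraries. It had 2.00, 1.17 and 1.39 CPM in ephrin-B1 siRNA and 1.42, 1.24 and 1.46 CPM in Ctrl libraries. These values rest on 8 to 58 counts per library, the lowest in EphB2 + ephrin-B1 siRNA replicate 3, and the groups overlapped. Its 95% interval in EphB2 vs Ctrl ran from -0.93 to 0.84 on the log2 scale. No difference was detectable, and the interval leaves room for changes up to these bounds. S100A3, which lies within the bounds of S100A4 on the same strand, had 5.37 TPM.

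RGS5, which shortens signals of G protein-coupled receptors and marks pericytes, had 3.03, 3.04 and 3.19 CPM in EphB2 + ephrin-B1 siRNA and 3.49, 2.65 and 3.18 CPM in EphB2 libraries. It had 4.26, 4.03 and 3.37 CPM in ephrin-B1 siRNA and 3.15, 3.77 and 4.13 CPM in Ctrl libraries. All EphB2 + ephrin-B1 siRNA libraries lay below all ephrin-B1 siRNA libraries, where 14.6% of genes tested did not overlap, with a log2 fold change of -0.33 (SE 0.17, edgeR adjusted p = 0.662, with the block adjusted p = 0.308). EphB2 + ephrin-B1 siRNA vs Ctrl gave -0.26 (SE 0.17, edgeR adjusted p = 0.619), lower in 3 of 3 pairs. EphB2 vs Ctrl gave -0.25 (SE 0.17, edgeR adjusted p = 0.827), and the sign of both turned with an offset for transcript length (0.048 in EphB2 vs Ctrl).

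The levels of 5 of the 9 members differed between replicate numbers. In the fit of group and replicate number, 32.2% of genes tested differed between numbers, and VIM (adjusted p = 3.33e-07), THY1 (1.82e-05), PDGFRB (2.25e-07), CSPG4 (3.23e-08) and TWIST2 (0.000153) were among them. TWIST1 (0.136), S100A4 (0.283) and RGS5 (0.964) were not called, nor was PRRX1. Averaged over the 4 groups VIM had 1491, 2147 and 1923 CPM in replicates 1, 2 and 3, while PDGFRB had 262, 169 and 219 and CSPG4 259, 126 and 195 CPM. The log2 difference of replicate 2 minus replicate 1 was 0.52 for VIM (SE 0.038), -0.36 for THY1 (SE 0.039), -0.64 for PDGFRB (SE 0.044), -1.04 for CSPG4 (SE 0.058) and -0.85 for TWIST2 (SE 0.12). VIM was thus higher in replicate 2 and the other 4 genes lower, and replicate 3 lay between replicates 1 and 2 in 4 of 4 groups for each of these 5 genes. Without replicate 1, TWIST2 was no longer called. What differed between the experiments is not stated in the labels and was not tested.

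**Figure D4:**
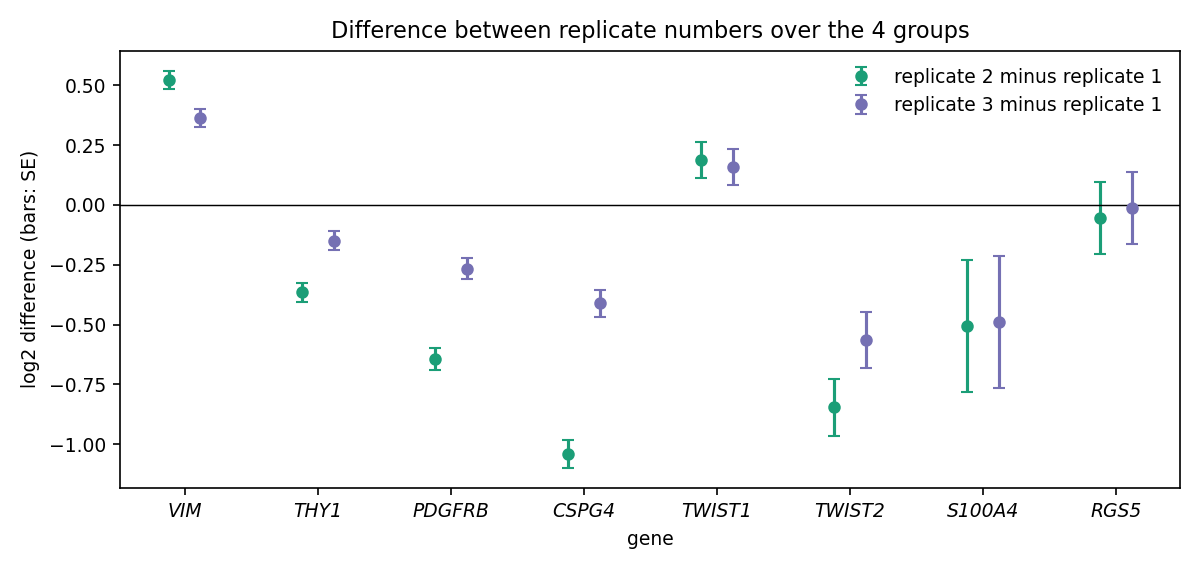
Log2 difference between replicate numbers over the 4 groups on the y axis, with its SE as bars, for 8 genes on the x axis, in green for replicate 2 minus 1 and in violet for replicate 3 minus 1. VIM lies above 0, at 0.52 and 0.36, CSPG4 lies lowest at -1.04 and -0.41, and RGS5 lies at 0 within its bars.

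The promoters of VIM, PDGFRB and CSPG4 are shown since these genes ran in opposite directions between replicate numbers. They are printed as for RGS5, from chr10:17227991-17228290 (plus strand), chr5:150155796-150156095 (minus strand) and chr15:75712799-75713098 (minus strand). The VIM window is set around the outermost base of the gene, 17228241. Whether VIM-201, which held 97.4% of VIM TPM, begins there was not checked.
VIM: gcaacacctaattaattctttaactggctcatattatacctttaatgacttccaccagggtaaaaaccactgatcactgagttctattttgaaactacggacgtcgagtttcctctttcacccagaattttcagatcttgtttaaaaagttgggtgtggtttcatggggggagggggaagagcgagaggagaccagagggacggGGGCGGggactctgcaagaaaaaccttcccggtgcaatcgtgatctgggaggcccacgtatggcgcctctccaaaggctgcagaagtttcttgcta
PDGFRB: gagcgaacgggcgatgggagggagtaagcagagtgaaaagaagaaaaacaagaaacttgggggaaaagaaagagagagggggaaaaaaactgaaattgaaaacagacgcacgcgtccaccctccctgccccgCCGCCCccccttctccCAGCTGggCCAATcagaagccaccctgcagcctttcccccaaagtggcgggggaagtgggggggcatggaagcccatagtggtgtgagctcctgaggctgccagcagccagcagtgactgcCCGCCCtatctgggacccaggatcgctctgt
CSPG4: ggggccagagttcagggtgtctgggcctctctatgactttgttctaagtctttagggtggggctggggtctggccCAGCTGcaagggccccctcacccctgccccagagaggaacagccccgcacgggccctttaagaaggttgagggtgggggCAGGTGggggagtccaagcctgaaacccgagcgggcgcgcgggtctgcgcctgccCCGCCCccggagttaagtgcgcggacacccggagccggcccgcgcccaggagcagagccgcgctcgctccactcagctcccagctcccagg
In these letters VIM had 1 GC box and no E-box, PDGFRB 2 GC boxes, 1 E-box and 1 CCAAT box, and CSPG4 2 E-boxes and 1 GC box. The E-box is the kind of sequence that basic helix-loop-helix factors such as TWIST1 bind, and its letters occur in most promoters, as given above.

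Of the 27 other mesenchymal genes tested, none passed in EphB2 vs Ctrl without the block, where 0.037% of all genes tested did. With the block 5 rose and 4 fell there (5.34% of all genes tested called). In ephrin-B1 siRNA vs Ctrl 1 rose and 1 fell (1.81% of all genes tested called), and with the block 1 and 7 (13.6%). In EphB2 + ephrin-B1 siRNA vs Ctrl 1 rose and 2 fell (2.01% called), and with the block 6 and 9 (15.1%). The most abundant were FN1, fibronectin, at 1705 ± 452 TPM and COL1A1, a chain of type I collagen, at 908 ± 176 TPM (SD, n = 12). COL1A1 fell in EphB2 + ephrin-B1 siRNA vs Ctrl (-0.42, SE 0.077, edgeR adjusted p = 0.0174). S100A6, a calcium-binding protein, fell there too (-0.91, SE 0.12, edgeR adjusted p = 0.0037) and in ephrin-B1 siRNA vs Ctrl (-0.71, SE 0.12, edgeR adjusted p = 0.0121). FBN1, fibrillin of elastic fibres, named after its values were seen, rose in both, by 0.73 in ephrin-B1 siRNA vs Ctrl (SE 0.13, edgeR adjusted p = 0.0203). COL3A1 and LUM, which fibroblasts of tissue express strongly, had 0.039 and 0.017 TPM and were likewise named after their values were seen.

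None of the 16 other pericyte genes tested passed without the block in any comparison, where at most 2.01% of all genes tested did. MCAM, an adhesion molecule, averaged 77.4 ± 21.4 TPM and NOTCH3, the Notch receptor of mural cells, 23.6 ± 5.4 TPM (SD, n = 12). With the block 1 rose and 0 fell in EphB2 vs Ctrl (5.34% of all genes tested called) and 3 rose and 3 fell in ephrin-B1 siRNA vs Ctrl (13.6%). For EphB2 + ephrin-B1 siRNA vs Ctrl these counts were 1 and 3 (15.1%). In ephrin-B1 siRNA vs Ctrl ACTA2, smooth muscle actin, named after its values were seen, rose by 0.86 (SE 0.11, edgeR adjusted p = 0.000158, with the block), and NOTCH3 fell (-0.24, SE 0.062, edgeR adjusted p = 0.02, with the block). ABCC9, a subunit of the potassium channel of mural cells, rose in EphB2 vs Ctrl with the block only (0.75, SE 0.19, edgeR adjusted p = 0.0375), and VTN, vitronectin, had -0.72 without passing (SE 0.26, edgeR adjusted p = 0.532).

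Among the 6 other genes of the PDGF family, PDGFB, the ligand of PDGFRB, was called without the block, in comparisons that called 0.616% to 2.01% of all genes tested. It averaged 8.20 ± 3.2 TPM and fell in ephrin-B1 siRNA vs Ctrl (-0.85, SE 0.18, edgeR adjusted p = 0.035), in EphB2 + ephrin-B1 siRNA vs EphB2 (-0.99, SE 0.18, edgeR adjusted p = 0.0392) and in EphB2 + ephrin-B1 siRNA vs Ctrl (-1.35, SE 0.18, edgeR adjusted p = 0.00402). PDGFC, the most abundant ligand at 32.6 ± 8.6 TPM, fell in EphB2 vs Ctrl with the block only (-0.41, SE 0.065, edgeR adjusted p = 0.00235). With the block 0 of these 6 genes rose and 1 fell in EphB2 vs Ctrl (5.34% of all genes tested called). In ephrin-B1 siRNA vs Ctrl 0 rose and 3 fell (13.6%), and in EphB2 + ephrin-B1 siRNA vs Ctrl 1 rose and 3 fell (15.1%). Of 9 partners and inhibitors of TWIST factors, TCF3 and TCF12, which pair with them, had 94.6 and 69.3 TPM. ID1, which blocks such pairing, fell in EphB2 + ephrin-B1 siRNA vs Ctrl (-0.99, SE 0.22, edgeR adjusted p = 0.0446, 2.01% of all genes tested called). ID2 fell in EphB2 vs Ctrl with the block only (-0.41, SE 0.091, edgeR adjusted p = 0.0185). With the block 0 of these 9 genes rose and 2 fell there (5.34% of all genes tested called, 3.2% lower). In ephrin-B1 siRNA vs Ctrl 1 rose and 1 fell (13.6%), and in EphB2 + ephrin-B1 siRNA vs Ctrl 1 rose and 2 fell (15.1%).

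Of the 9 other S100 genes tested, only S100A6, which is also in the mesenchymal list, passed without the block, with the values above, and 8 had at least 1 TPM. In no comparison did more than 2.01% of all genes tested pass without the block. With the block 0 of the 9 S100 genes rose and 2 fell in EphB2 vs Ctrl (5.34% of all genes tested called, 3.2% lower). In ephrin-B1 siRNA vs Ctrl 0 rose and 4 fell (13.6% called, 7.06% lower). For EphB2 + ephrin-B1 siRNA vs Ctrl these counts were 0 and 5 (15.1% called, 9.04% lower). S100A6 at 904 TPM and S100A10 at 403 TPM lay far above S100A4. None of the 5 other RGS genes of the R4 group tested passed without the block, and RGS3 at 35.6 TPM and RGS2 at 16 TPM lay above RGS5. With the block 0 of these 5 rose and 1 fell in ephrin-B1 siRNA vs Ctrl (13.6% of all genes tested called). The same counts, 0 and 1, held in EphB2 + ephrin-B1 siRNA vs Ctrl (15.1%).

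The genes whose log2(CPM + 1) followed a member most closely over the 12 libraries were CD63 for VIM (Pearson r 0.99), ARHGEF40 for THY1 (0.98), SYNGR1 for PDGFRB (0.98), MEIS3 for CSPG4 (0.99), PYM1 for TWIST1 (0.95), PKD1P4 for TWIST2 (0.95), ARHGAP21 for S100A4 (0.88) and MINDY3 for RGS5 (0.92). Each was the best of 10144 or 10145 genes with a mean of at least 10 CPM. The libraries of a replicate number share an experiment, so these values describe a shared order of 12 libraries and carry no test.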

How the data were processed

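RNA of HMC3 cells, depleted of rRNA, was sequenced as paired ends of 100 bases in 12 libraries of 4 groups. The authors quantified it with kallisto (version not given in the sources used here) against Ensembl cDNA sequences of GRCh38. The estimated counts per transcript were deposited without further normalization, and the TPM values were deposited as kallisto computed them from these counts and effective lengths.

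Of 188753 transcripts, 167067 (88.5%) were paired with genes of GENCODE 44 by transcript ID, and they held 95.25% to 95.98% of the counts of a library. Transcript counts were added up by gene, rounded to whole numbers, kept where a gene had 10 or more over 12 libraries, and tested with edgeR 4.0.16 (quasi-likelihood, TMM, all groups in 1 fit, Benjamini-Hochberg, threshold 0.05). SE is the absolute log2 fold change divided by the square root of F, and 95% intervals use the residual degrees of freedom (8, or 6 with the block). Alternatives were DESeq2 1.42.0, other size factors and filters, the replicate block, only the groups compared, a length offset, limma 3.58.1 on log2(TPM + 1) for genes of at least 0.1 TPM, and leaving out libraries. TPM rescaled without RNA5-8SP6 was added after the data were seen. The scripts were tested on simulated data. R 4.3.3 and Python 3.11.15 were used.

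Libraries of a replicate number share an experiment number in their submitted names, and were taken as pairs for that reason. Deviations from the group means correlated between 0.74 and 0.81 in replicate 1 and between 0.77 and 0.82 in replicate 2, but only between 0.051 and 0.38 in replicate 3, over 10145 genes, so the values alone do not pair replicate 3. The biological coefficient of variation shared by all genes was 0.182 without and 0.0649 with the block. Samples were grouped by their titles. The p-values of the fit of groups alone rest on the spread between libraries of a group. Those of the blocked fit rest on the spread that is left after differences between replicate numbers are taken out. The members, lists and motifs were chosen with earlier results of these data known. Context genes named are the 2 of each list highest by mean TPM and the 2 with the smallest p in EphB2 vs Ctrl, and others are marked as named after their values were seen. Promoter sequences are from RefSeq, which held 7 of the 9 members.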

Additional observations from a re-analysis of the deposited data

Results flagged for a closer look

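TWIST2 was the only one of the 8 members with a measurable fold in which the effect of an agent ran in opposite directions in all pairs of libraries. EphB2-Fc went with higher TWIST2 in 3 of 3 pairs after ephrin-B1 siRNA. After negative control siRNA it went with lower TWIST2 in 3 of 3 pairs. How many of all genes tested cross in this way was not counted. The siRNA showed the same crossing with and without EphB2-Fc, which is the same difference between effects and not a further observation. The test of this difference gave 0.58 on the log2 scale (SE 0.47, edgeR adjusted p = 1.00, with the replicate block SE 0.19, unadjusted p = 0.0101 and adjusted p = 0.647), so the difference did not pass. With the block, 6.70% of genes tested had an unadjusted p under 0.05 in the interaction. The values of TWIST2 rest on 46 to 191 counts per library. Groups of 3 libraries were too small to look for outlying libraries.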

How the results depend on the processing

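The number of members called was 0 in each of the 6 comparisons, the interaction included, under every alternative without the replicate block, and leaving out a library or a replicate number kept it at 0 to 0. The replicate block with edgeR moved it to 1 in EphB2 vs Ctrl, 2 in ephrin-B1 siRNA vs Ctrl, 1 in EphB2 + ephrin-B1 siRNA against ephrin-B1 siRNA alone, 2 in EphB2 + ephrin-B1 siRNA vs EphB2, 3 in EphB2 + ephrin-B1 siRNA vs Ctrl and 0 in the interaction. With DESeq2 and the block these were 2, 2, 1, 2, 3 and 0, and with the block but without replicate 3 they were 1, 1, 0, 0, 3 and 0. In the same order these fits called 1111, 2441, 1278, 1819, 2741 and 25 of 21601 genes with DESeq2, and 140, 830, 169, 333, 1167 and 6 of 20658 without replicate 3. Over all genes DESeq2 without the block called 205 in EphB2 vs Ctrl, where edgeR called 8, 1008 against 391 in ephrin-B1 siRNA vs Ctrl and 1150 against 434 in EphB2 + ephrin-B1 siRNA vs Ctrl. With the block edgeR called 1153, 2931 and 3262 there. The 5 members called between replicate numbers stayed at 4 to 5 when a number was left out, and 8 members kept a mean of at least 1 TPM under each way of forming TPM, among them TPM without RNA5-8SP6, chosen after seeing the data. Of 36 means of a member in a group, 27 moved by at least their SD when TPM was rescaled without RNA5-8SP6. That count includes the PRRX1 means of 0, whose SD is 0.

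Of 48 log2 fold changes, RGS5 changed sign in EphB2 vs Ctrl with the length offset (0.048) and with limma on TPM (0.035, and 0.12 without RNA5-8SP6), in EphB2 + ephrin-B1 siRNA vs Ctrl with the offset (0.098) and with limma (0.039, and 0.18 without RNA5-8SP6), and in EphB2 + ephrin-B1 siRNA against ephrin-B1 siRNA alone with limma without RNA5-8SP6 (0.023). TWIST1 in EphB2 + ephrin-B1 siRNA vs EphB2 changed sign with limma on TPM (-0.012). The cause was not tested. In 116 further cases a difference smaller than its SE changed sign. The filter of filterByExpr and limma at 0.1 TPM removed PRRX1. A fit of only the groups compared could not be made for the interaction. Counts of 8 to 58 for S100A4 and 41 to 81 for RGS5 per library limit what could be detected for them.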
